A study of Mus musculus with 4 samples.

Results

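The Rhox genes (reproductive homeobox, X-linked) are a cluster of homeobox genes on the mouse X chromosome. Of 42 genes with a Rhox name in the GENCODE M21 annotation, 8 single-copy members are described here, namely Rhox1, Rhox5, Rhox6, Rhox9, Rhox10, Rhox11, Rhox12 and Rhox13, among 54838 genes counted in all. They were taken by gene identifier from tables of RNA-seq read counts. The other 34 are mostly Rhox2, Rhox3 and Rhox4 copies that resemble each other closely, and pseudogenes. The members were proposed with the results of the same comparison of lines known, so their differences are given as a description and no test of them is used as support.

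The wild-type group was E14 (E14Tg2a.4), an embryonic stem (ES) cell line of strain 129/Ola, with 2 libraries. The knock-in group was the line MLC460, also E14 cells of that strain by its labels and also with 2 libraries, in which CRISPR/Cas9 had placed the coding sequence of monomeric enhanced green fluorescent protein (mEGFP) at the 5' end of the endogenous gene for p300, so that p300 carries mEGFP at its N-terminus. p300 is an acetyltransferase that acts as a transcriptional coactivator at enhancers. Cells of both groups were grown on gelatin in serum with leukemia inhibitory factor (LIF). The labels name 2 biological replicates per line and 1 knock-in line, so the tag cannot be told apart from any other difference of that line, and the spread between libraries is the spread within a line.

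Homeobox genes encode transcription factors that bind DNA through a homeodomain. Rhox genes are known mainly from testis, epididymis, ovary and placenta, and the founding gene of the cluster, Rhox5 (also called Pem), is transcribed in Sertoli cells under androgen control and also in ES cells and extra-embryonic tissue. Genes of the cluster are known to be held silent in many embryonic cells by DNA methylation, and loss of DNA methyltransferases, of the H3K9 methyltransferase G9a or of linker histone H1 in ES cells is known to raise Rhox genes.

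The members lie within 916.2 kb of chromosome X on GRCm38, inside a cluster that runs from the first to the last Rhox-named gene at chrX:37213804-38306028 (1092 kb). Rhox1 stands at chrX:37213804-37222258 on the minus strand, at -582.6 kb from the start of Rhox5. Rhox5 (chrX:37804842-37808876, plus strand), Rhox6 (chrX:37826910-37829857, plus) and Rhox9 (chrX:37899097-37901770, minus) follow. Rhox10 (chrX:38066475-38071691, plus), Rhox11 (chrX:38076594-38085141, minus), Rhox12 (chrX:38104077-38110907, minus) and Rhox13 (chrX:38121219-38129967, plus) form a group toward the far end. No other annotated gene overlapped any of the 8, so their unstranded counts do not mix with those of an annotated antisense partner.

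**Figure D1:**
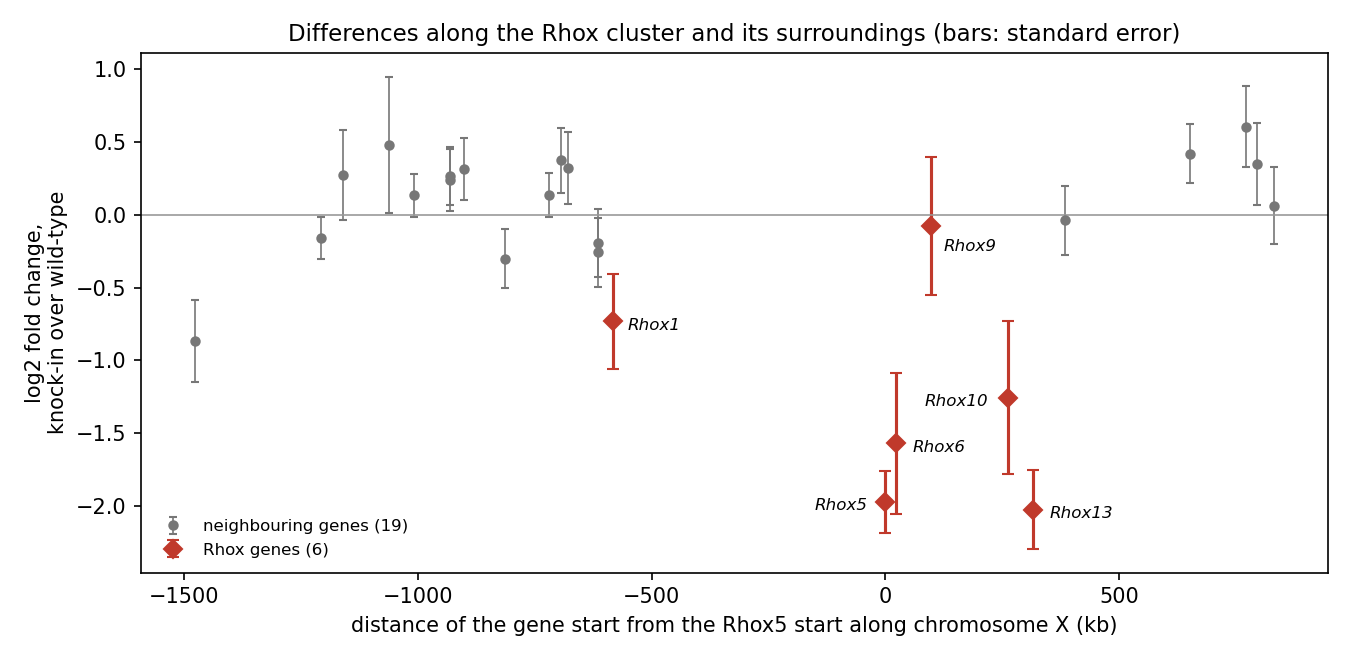
Map of the Rhox cluster, with distance from the start of Rhox5 in kb along the horizontal axis and the log2 difference in level between knock-in and wild-type on the vertical axis, for members and for neighbouring genes within 1 Mb of the cluster; bars are standard errors. Rhox5 and Rhox13, 316.4 kb apart, are the lowest members, and the 19 tested neighbours lie between -0.87 and 0.61.

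Rhox6 and Rhox9, known as the placental genes Psx1 and Psx2, are the near-identical pair among the members, and the stretch of coding sequence in which they cannot be separated is shown because it limits what their counts can say. The coding sequences compared are both 681 bases long without the stop codon, that of Rhox9 from the shorter of its 2 transcripts (the longer, of 2422 bases, has 543 coding bases). Of the 681 bases, 617 are the same and 64 differ (90.6% the same). The longest identical run is 161 bases. It is shown with 20 bases on each side (coding bases 147 to 347), read 5' to 3' on the coding strand, from GENCODE M21 on GRCm38, and capitals mark the 7 bases that differ. The Rhox6 stretch lies at chrX:37827430-37827630 on the plus strand and the Rhox9 stretch at chrX:37901147-37901347 on the minus strand.
Rhox6: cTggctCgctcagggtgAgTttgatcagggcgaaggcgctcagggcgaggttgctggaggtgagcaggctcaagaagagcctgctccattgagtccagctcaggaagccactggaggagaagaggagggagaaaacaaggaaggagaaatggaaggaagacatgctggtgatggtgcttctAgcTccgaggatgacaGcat
Rhox9: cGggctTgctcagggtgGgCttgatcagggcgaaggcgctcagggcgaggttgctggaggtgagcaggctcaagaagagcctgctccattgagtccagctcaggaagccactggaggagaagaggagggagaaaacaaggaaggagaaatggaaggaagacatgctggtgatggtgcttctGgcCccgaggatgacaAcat

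A read that falls wholly within the identical run fits both genes equally. Over all exons, 83.5% of the 50-base words of Rhox6 and 93.7% of those of Rhox9 were found in no other gene's transcripts, and 159 words were shared, in each case with the other of the pair alone. For Rhox1, Rhox5, Rhox10, Rhox11, Rhox12 and Rhox13, 100% of 50-base words were found in no other gene's transcripts. These 6 members therefore have no annotated near-identical copy at this word length, and those of Rhox6 and Rhox9 are uncertain as far as the shared stretch goes.

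The promoters of the pair that differed most between the lines, Rhox5 and Rhox13, are shown because methylation of CpG dinucleotides is the known mode of silencing of this cluster. Each window holds 250 bases before and 50 after the RefSeq start on GRCm38.p6, and capitals mark CpG dinucleotides. The Rhox5 window is chrX:37754358-37754657 on the plus strand, and its RefSeq start lies 50234 bases before the start of the GENCODE gene. Rhox5 is known to have a distal and a proximal promoter, and counts per gene do not tell which start was used. No window at the start of the GENCODE gene of Rhox5, whose exons gave its counts, was examined. The Rhox13 window is chrX:38120590-38120889 on the plus strand, with a start 379 bases before that of GENCODE.
Rhox5: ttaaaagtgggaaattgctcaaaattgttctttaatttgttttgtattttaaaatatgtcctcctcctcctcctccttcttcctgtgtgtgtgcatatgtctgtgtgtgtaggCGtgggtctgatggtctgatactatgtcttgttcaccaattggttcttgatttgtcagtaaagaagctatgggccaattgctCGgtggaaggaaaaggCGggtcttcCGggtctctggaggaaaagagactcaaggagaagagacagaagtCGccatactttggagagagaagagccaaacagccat
Rhox13: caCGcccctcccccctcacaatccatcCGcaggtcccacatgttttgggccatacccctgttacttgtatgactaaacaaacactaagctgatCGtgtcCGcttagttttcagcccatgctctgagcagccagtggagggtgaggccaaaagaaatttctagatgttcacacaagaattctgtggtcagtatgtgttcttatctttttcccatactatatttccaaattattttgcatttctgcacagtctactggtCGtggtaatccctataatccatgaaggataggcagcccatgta

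Each of these windows holds 5 CpG dinucleotides, against a median of 7 over 32851 RefSeq windows of 300 bases. The ratio of observed to expected CpG was 0.363 for Rhox5 and 0.335 for Rhox13, near the median of 0.384 over all windows. On both strands together, the Rhox5 window has 6 matches to GGAA, the core that ETS-family factors bind (found in 96.0% of all windows), of which 1 lies within CCGGAA (14.9% of windows). The Rhox13 window has 2 matches to the ETS core and none to the longer form with a CpG. The androgen receptor half-site, searched as AGAACA, occurs 1 time in each window (18.97% of all windows). The SP1 box, searched as GGGCGG, occurs in neither (35.7% of all windows). Among the other members with a RefSeq window, Rhox10 has 9 CpG, Rhox11 has 7, Rhox12 has 3 and Rhox1 has 0. These matches describe letters in a window and not sites of binding, and methylation was not measured.

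Reads counted in genes ran from 18946731 to 26553998 per library, which sets 3 reads at 0.109 to 0.161 CPM, the read count of a gene relative to the TMM-scaled size of its library. Ep300, the tagged gene, stood at 210 CPM in both wild-type libraries and at 181 and 210 CPM in knock-in 1 and 2, a log2 difference of -0.10 (SE 0.15). This is a check of amount and not of the tag. ES cell markers were high in every library: the 8 of the list summed to 5701 to 5764 CPM in wild-type and 5868 to 6228 CPM in the knock-in line. Wild-type 2 stood apart, with deviations from the mean of the other libraries that followed the G+C content of genes (Spearman rho 0.652 across 15181 genes, which are not independent replicates, against -0.273, -0.368 and -0.434 in the other libraries). Of 8951 genes at 10 CPM or more, 153 were over 2-fold apart within the wild-type pair and 1 within the knock-in pair. Results are therefore also given without each library in turn and with a correction for G+C content.

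In ES cells of the wild-type line, 3 of the 8 members were expressed, taken as at least 1 CPM in both libraries of a line: Rhox5, Rhox13 and Rhox1. Another 4 (Rhox6, Rhox9, Rhox10 and Rhox11) were at trace level, with at least 1 read but below that limit, and Rhox12 had no reads. Per length, as CPM divided by exon length in kilobases (RPKM), the wild-type order was Rhox5 (34.0 ± 4.59, SD, n = 2), Rhox13 (9.64 ± 1.32), Rhox1 (2.64 ± 0.102), Rhox10 (1.57 ± 0.614), Rhox6 (1.11 ± 0.165) and Rhox9 (0.301 ± 0.0129). Rhox10 and Rhox6 overlapped between libraries, while every other neighbouring pair in that order was apart.

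The order of means was the same in the knock-in line. There Rhox5 stood at 8.63 ± 1.27 RPKM (SD, n = 2), Rhox13 at 2.34 ± 0.463, Rhox1 at 1.60 ± 0.224, Rhox10 at 0.641 ± 0.311, Rhox6 at 0.375 ± 0.0699 and Rhox9 at 0.281 ± 0.0929. Rhox10 overlapped with Rhox6, and Rhox6 with Rhox9, so the lower end of this order was not resolved. Rhox13, far above Rhox1 in wild-type cells, was close to it in the knock-in line, with 2.02 RPKM in its lower library against 1.76 RPKM in the higher library of Rhox1.

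**Figure D2:**
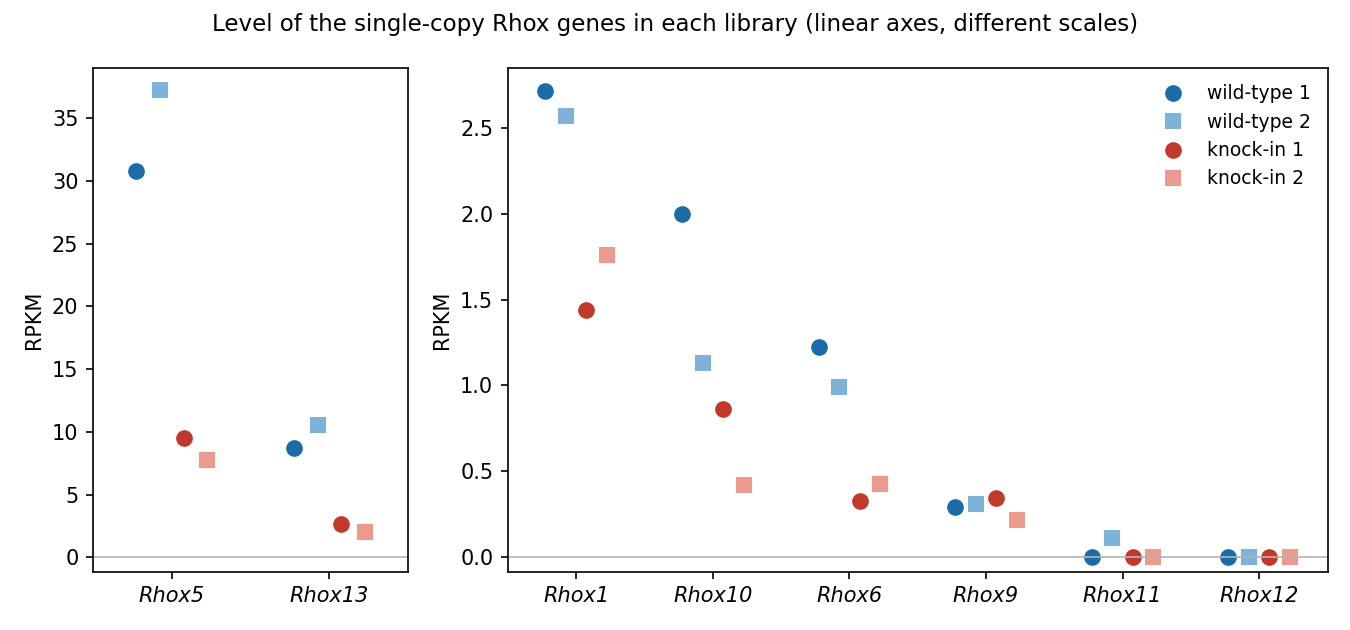
Level of each Rhox member in each of the 4 libraries, in RPKM on linear axes, without intervals. Rhox5 and Rhox13 are at left and the other members at right, on a different scale. For Rhox5 and Rhox13 both knock-in points lie below both wild-type points, and Rhox9 overlaps between the lines.

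Of the 8 members, 6 passed the low-count filter and were tested, and Rhox11 and Rhox12 were not. Both knock-in libraries were below both wild-type libraries for 5 of the 6, against 23.9% of all tested genes, and Rhox9 was the exception. The edgeR quasi-likelihood test placed 2 of the 6, Rhox5 and Rhox13, below an adjusted p of 0.05 and lower in the knock-in line, against 0.0592% of tested genes. Rhox13 lay at the threshold (adjusted p = 0.0498) and was not called by limma-voom (adjusted p = 0.0822). These shares are printed side by side and nothing is read from them, since the members were picked from this contrast. The median log2 difference of the 6 was -1.41 and that of all 15191 tested genes 0.00098, and 4 of the 6 were at or below -1 against 585 of all genes (3.85%). Rhox6 and Rhox10 needed their wild-type libraries to pass the filter, so figures over the tested members do not stand for all 8.

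Rhox5, the founding gene, had 639 and 619 reads in wild-type 1 and 2, against 175 and 109 in knock-in 1 and 2. Scaled for depth, these are 23.2, 28.1, 7.19 and 5.84 CPM. The knock-in libraries were both lower than either wild-type library by a wide gap, and within a line the libraries were close. The mean fell from 25.7 ± 3.46 to 6.51 ± 0.955 CPM (SD, n = 2 each), a log2 difference of -1.97 (SE 0.21), 3.92-fold, so that 25.5% of the wild-type level remained. With each library left out in turn the difference stayed between -2.16 and -1.83.

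Rhox13, a homeobox gene known from male germ cells, had 210 and 204 reads in wild-type 1 and 2, against 57 and 33 in knock-in 1 and 2. These are 7.63, 9.26, 2.34 and 1.77 CPM. As for Rhox5, the lines did not overlap and the higher wild-type value was in wild-type 2. The mean fell from 8.45 ± 1.16 to 2.05 ± 0.406 CPM (SD, n = 2 each), a log2 difference of -2.02 (SE 0.27), 4.07-fold, leaving 24.6% of the wild-type level. With each library left out in turn it stayed between -2.27 and -1.84.

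In bulk RNA, fewer cells with a transcript and less of it per cell cannot be told apart. With the correction for G+C content, Rhox5 stood at -1.84 and Rhox13 at -1.80 on the log2 scale, and they were again the 2 members called lower, against 0.856% of all tested genes. Markers of other cell types were read beside these values. The 8 primitive endoderm markers summed to 9.22 to 9.73 CPM in wild-type and 8.30 to 9.81 CPM in the knock-in line. The 8 germ cell markers summed to 145 to 183 CPM in wild-type and 168 to 170 CPM in the knock-in line. Of the 7 tested, 3 were higher and 1 was lower in both knock-in libraries, with a median of 0.045. Of these 7, 0 passed edgeR's test and 2 had an unadjusted p under 0.05, against 10.9% of all tested genes. The 10 trophoblast markers summed to 50.8 to 50.9 CPM in the wild-type and 57.4 to 59.4 CPM in the knock-in line, but most of that sum is Tfap2c (34.2 and 34.9, then 47.4 and 44.7 CPM). Of the 5 trophoblast markers tested, 3 were lower in both knock-in libraries, namely Eomes (log2 difference -0.49), Ascl2 (-0.51) and Krt7 (-1.21), and 2 were higher, Tfap2c (0.42) and Hand1 (0.54). The median of the 5 was -0.49, 0 passed edgeR's test and 2 had an unadjusted p under 0.05, while Cdx2 and Elf5 were at most 0.136 CPM and Tpbpa and Prl3d1 at 0 in every library. The 6 fibroblast or feeder markers summed to 19.5 to 24.1 CPM in wild-type and 14.0 to 14.8 CPM in the knock-in line, with Twist2 at 0. The 3 tested were lower in both knock-in libraries, namely Col1a1 (log2 difference -0.94), Col1a2 (-1.09) and Thy1 (-0.55). Their median was -0.94, 0 passed edgeR's test and 2 had an unadjusted p under 0.05. Over all tested genes, 23.9% had both knock-in libraries below both wild-type libraries. The part of any of these lists in the Rhox difference was not tested.

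Reads of Rhox5 and Rhox13 kept nearly the same ratio in every library. Rhox13 had 0.329 and 0.330 reads per Rhox5 read in wild-type 1 and 2, against 0.326 and 0.303 in knock-in 1 and 2. As a share of the reads of both genes, Rhox13 made up 24.7% (95% Wilson interval 22.0 to 27.8) and 24.8% (22.0 to 27.9) in wild-type cells and 24.6% (19.5 to 30.5) and 23.2% (17.1 to 30.8) in the knock-in line. All 4 intervals overlap. They cover counting error only, as reads without molecular identifiers need not be separate molecules.

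**Figure D3:**
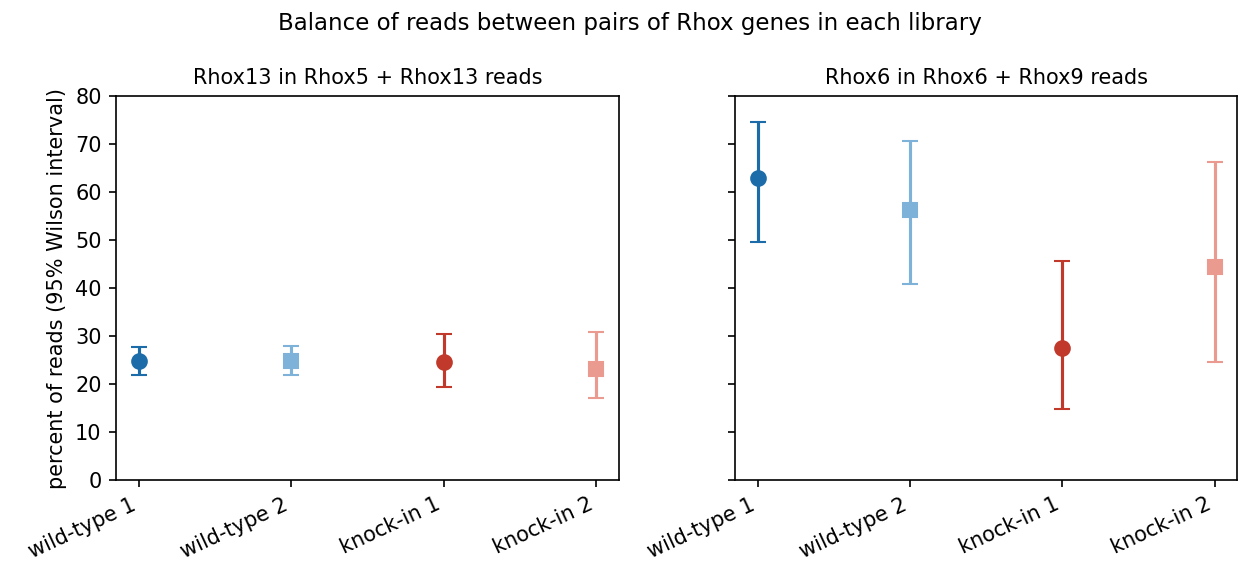
Left, Rhox13 reads as a percent of Rhox13 plus Rhox5 reads in each library, and right, Rhox6 reads as a percent of Rhox6 plus Rhox9 reads, with 95% Wilson intervals. The Rhox13 share lies between 23.2% and 24.8%, while the Rhox6 share runs from 27.6% to 63.0% with wide intervals.

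Among all 13143 genes at a mean of 1 CPM or more, Rhox13 was the nearest to Rhox5 in its pattern over the 4 libraries, and Rhox5 the nearest to Rhox13, with a Euclidean distance of 0.101 between their centred log2 CPM. The next named genes for Rhox5 were Aox3 (0.239), an aldehyde oxidase, Gem (0.269), a small GTPase, Ikbke (0.271), a kinase of the innate immune response, Vgf (0.309), a neuropeptide precursor, and Nxf3 (0.364), an X-linked relative of RNA export factors. For Rhox13 they were Aox3 (0.290), Gem (0.319), the imprinted gene Mest (0.327), Lgi3 (0.335) and Vgf (0.349). Of these, only Nxf3 lies on chromosome X. The distances rest on 4 libraries and on the contrast from which the members were chosen, and serve as a description.

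Rhox1, at the other end of the cluster, had a smaller difference. It had 66 and 50 reads in wild-type 1 and 2, against 31 and 29 in knock-in 1 and 2, which are 2.40, 2.27, 1.27 and 1.55 CPM. The lines did not overlap. Its mean was 2.33 ± 0.0898 CPM in wild-type and 1.41 ± 0.198 CPM in the knock-in line (SD, n = 2 each), a log2 difference of -0.73 (SE 0.33, 95% interval -1.47 to 0.0066), and it did not pass the test. Rhox1 remained above 1 CPM in both knock-in libraries, as did Rhox5 and Rhox13.

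Rhox10, known for its role in spermatogonial stem cells, had 42 and 19 reads in wild-type 1 and 2, against 16 and 6 in knock-in 1 and 2. These are 1.53, 0.863, 0.657 and 0.321 CPM. The lines did not overlap, but the libraries of each line were wide apart. The log2 difference was -1.26 (SE 0.52), did not pass the test, and lay at -0.77 without wild-type 1 and at -1.91 without knock-in 1.

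Rhox6 and Rhox9, the similar pair, had unlike values in these counts. Rhox6 had 34 and 22 reads in wild-type 1 and 2 and 8 in each knock-in library, or 1.24, 0.999, 0.329 and 0.428 CPM. Rhox9 had 20 and 17 reads in wild-type 1 and 2, against 21 and 10 in knock-in 1 and 2, or 0.726, 0.772, 0.862 and 0.535 CPM. The lines were apart for Rhox6 and overlapped for Rhox9. The log2 difference was -1.57 (SE 0.48) for Rhox6 and -0.08 (SE 0.47, 95% interval -1.14 to 0.99) for Rhox9, and neither passed the test.

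Of the reads of both genes, Rhox6 took 63.0% (95% Wilson interval 49.6 to 74.6) and 56.4% (41.0 to 70.7) in wild-type 1 and 2. It took 27.6% (14.7 to 45.7) and 44.4% (24.6 to 66.3) in knock-in 1 and 2. The shares were lower in both knock-in libraries, but the interval of knock-in 2 overlaps those of both wild-type libraries and that of knock-in 1 overlaps that of wild-type 2. The difference between the genes' changes was not tested. Of the tested members, Rhox9 alone changed sign when a library was left out: its log2 difference was 0.21 without knock-in 2 and -0.50 without knock-in 1.

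Rhox11 had 2 reads, both in wild-type 2, and Rhox12 had 0 reads in all 4 libraries. A floor of 3 reads was set for a count of 0, a 1-sided limit at about 95% that covers counting error only. For Rhox12 it stands at 0.109 CPM in wild-type 1, 0.136 in wild-type 2, 0.123 in knock-in 1 and 0.161 in knock-in 2. No difference could be detected for either gene at this depth. Rhox10, Rhox11, Rhox12 and Rhox13 stand next to each other on the chromosome, so a pair with 2 reads in all lies between a trace gene and the second most abundant member.

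**Figure D4:**
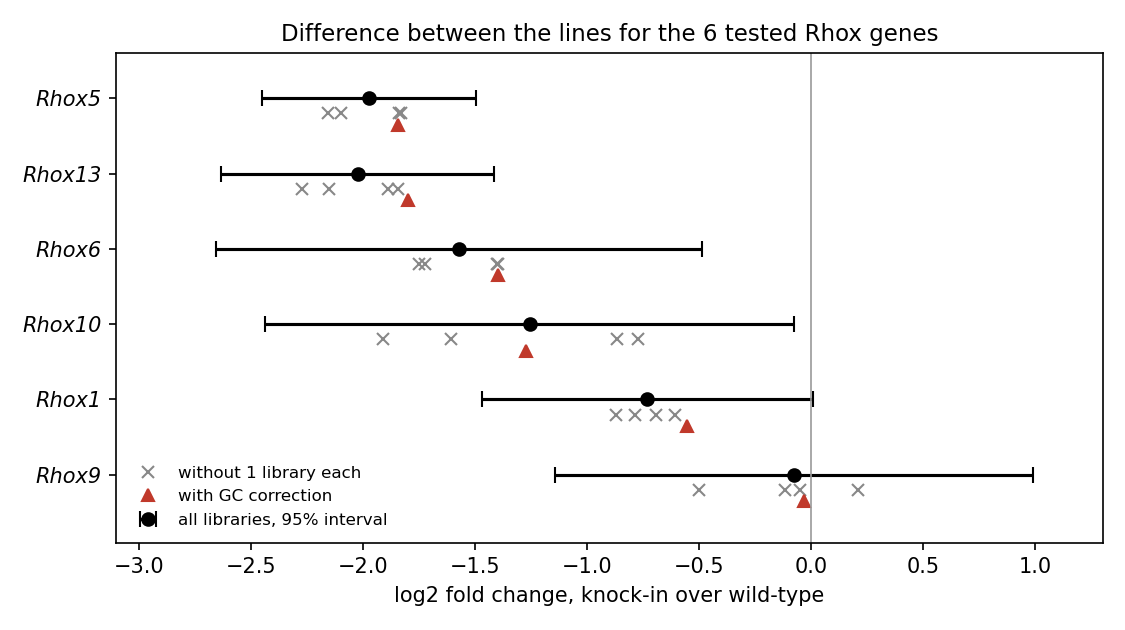
Log2 difference of knock-in against wild-type for the 6 tested members, as estimated from all 4 libraries, with 95% intervals. Points without intervals are estimates without each library in turn and with correction for G+C content. The estimates of Rhox5 and Rhox13 lie between -2.27 and -1.80 throughout, and Rhox9 spans 0.

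Summed over the 8 members, the level was 36.7 and 42.4 CPM in wild-type 1 and 2, against 12.7 and 10.4 CPM in knock-in 1 and 2. Rhox5 supplied most reads of the group in every library, 63.2% and 66.4% in wild-type and 56.8% and 55.9% in the knock-in line. Rhox13 supplied 20.8% and 21.9%, then 18.5% and 16.9%. The shares of Rhox1 and Rhox9 were larger in the knock-in line: Rhox1 went from 6.53% and 5.36% to 10.1% and 14.9%, and Rhox9 from 1.98% and 1.82% to 6.82% and 5.13%.

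The 34 other Rhox genes were near the limit of detection. Together they had 47 reads in the wild-type and 24 in the knock-in libraries, 22 of them had none, and 0 passed the low-count filter. Of these, the 25 lettered Rhox2, Rhox3 and Rhox4 copies had 13 reads in wild-type and 4 in knock-in libraries, with at most 9 reads for any 1 gene over all libraries. Their transcripts are so alike that a median of 19.2% of 50-base words (range 0 to 55.3%) was found in a single gene. Reads that fit several places were not counted, so low counts of these copies do not show that they were silent. Beside this, the 3 pseudogenes Rhox7-ps2, Rhox2-ps and Rhox7-ps1 had 18, 17 and 17 reads over all libraries, and Rhox7-ps2, chosen here after its values were seen, had 11 and 6 reads in wild-type and 0 and 1 in knock-in libraries.

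Of 29 protein-coding genes within 1 Mb of the cluster, 19 were tested and 0 passed edgeR's test, against 0.0658% of all tested genes in either direction. At an unadjusted p under 0.05 there was 1, against 10.9% of all tested genes, and DESeq2 and limma-voom gave 0, against 0.81% and 0.0263%. The median log2 difference was 0.24 and the range -0.87 to 0.61, and 6 of the 19 were negative. Without wild-type 1, 12 of them passed, 9 higher and 3 lower, in a setting where 5015 of 15622 genes (32.1%) passed.

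The nearest expressed gene before the cluster, Rnf113a1, which encodes a splicing-associated RING finger protein, stood at -0.26 (SE 0.24). The nearest after it, Lamp2, a lysosomal membrane protein, stood at 0.42 (SE 0.20). Of the most abundant neighbours, Slc25a5, the mitochondrial ADP/ATP carrier, stood at 0.13 (SE 0.15), the ribosomal protein gene Rpl39 at 0.14 (SE 0.15), the membrane haem-binding protein gene Pgrmc1 at -0.16 (SE 0.14) and the ubiquitin ligase scaffold gene Cul4b at 0.61 (SE 0.28). Without wild-type 1, which leaves wild-type 2 as the only wild-type library, Cul4b stood at 1.22, Lamp2 at 0.67 and Rnf113a1 at -0.51. Without wild-type 2, Cul4b stood at 0.16, Lamp2 at 0.19 and Rnf113a1 at 0.030. With the G+C correction and all libraries, they stood at 0.42, 0.077 and -0.078. Zbtb33, inside the cluster span but past Rhox13, the last of the 8 members, stood at -0.04 (SE 0.24). No Rhox-named gene beyond it was tested. Zbtb33 was named after its values were seen. Of 517 tested genes on chromosome X outside the Rhox family, 0 passed edgeR's test (55 at an unadjusted p under 0.05), with a median of 0.09.

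Genes known to act on the cluster were read beside 12 germline genes known to be silenced by promoter methylation, 41 genes in all. Of these, 38 were tested and 0 passed edgeR's test (4 at an unadjusted p under 0.05, near the 10.9% of all genes, 1 with DESeq2, 0 with limma-voom). The germline genes held 3 of the 4, and the 1 with DESeq2 was the germline gene Tuba3b. All 15 DNA and H3K9 methylation factors were tested, with a median log2 difference of 0.09. Trim28, the corepressor that recruits H3K9 methylation, stood at 2464 and 3359 CPM in wild-type 1 and 2 and at 2942 and 2737 in knock-in 1 and 2, a difference of -0.04 (SE 0.18) whose sign turned with the G+C correction (0.23). Uhrf1, which guides maintenance methylation, stood at 865 and 1099 CPM in wild-type and 999 and 974 CPM in knock-in libraries, a difference of 0.0067 (SE 0.16). Both genes overlapped between the lines.

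The 7 linker histone H1 genes had a median of -0.07 and a range of -0.68 to 0.79, with H1f0 at -0.07 (SE 0.20) and H1fx at -0.43 (SE 0.28). The lowest, Hist1h1c, was named after its values were seen. It stood at 8.1 and 6.2 CPM in wild-type and 3.9 and 5.1 CPM in knock-in libraries, a difference of -0.68 (SE 0.26). Hist1h1a, Hist1h1b, Hist1h1d and Hist1h1e were at 1.66 CPM or less in every library, so the median rests partly on low counts. The sign for H1f0 turned with the G+C correction (0.064). Of 7 factors known at the Rhox5 promoters 6 were tested, with a median of 0.20. Among them Gabpa, the ETS factor known to bind the distal promoter, stood at 0.42 (SE 0.21), and Sp1 at 0.22 (SE 0.16). Without wild-type 1, Gabpa, Sp1 and H1fx stood at 0.78, 0.37 and -0.75. Without wild-type 2 they stood at 0.12, 0.074 and -0.037.

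Germline genes known to be silenced by promoter methylation lay on both sides of 0. Of 12 listed, 10 were tested, with a median of -0.21 and a range of -2.12 to 1.17. Tuba3a, a testis tubulin gene, stood at -0.51 (SE 0.18) and Hormad1, a meiotic chromosome protein, at 0.05 (SE 0.29). Hormad1 turned to -0.35 with the G+C correction. Tuba3a and Hormad1 stood at -0.73 and 0.63 without wild-type 1, and at -0.26 and -0.37 without wild-type 2. The extremes of the list, named after their values were seen, lay on opposite sides. Tuba3b stood at 3.52 and 4.54 CPM in wild-type libraries and at 0.739 and 1.12 CPM in those of the knock-in line, a log2 difference of -2.12 (SE 0.35). Sycp3, a protein of the meiotic chromosome axis, stood at 4.00 and 1.95 CPM in wild-type libraries and at 6.57 and 7.01 CPM in those of the knock-in line, a difference of 1.17 (SE 0.33). Neither passed edgeR's test with all libraries and no further term (adjusted p = 0.103 and 0.298). Over 13 settings, Tuba3b passed in 9, among them DESeq2 (adjusted p = 0.0030), the G+C correction (0.0112) and edgeR's fit without the low-count filter (1.09e-06). Sycp3 passed in 4 of the 13, with edgeR's fit without the low-count filter (adjusted p = 0.0051), with both replicate blocks (0.0158 and 0.0017) and without wild-type 1 (3.56e-08).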

How the data were processed

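Total RNA extracted with Trizol went into TruSeq RNA libraries, per the labels, which name no strand-marking kit. The deposited tables hold raw counts of reads per gene that the authors made with STAR 2.5.3a after Trim Galore on GRCm38 (mm10), per the submitters' processing notes. Multimapping reads (3.80% to 4.46% of reads) are not among the gene counts. The reverse-strand column held 50.2% to 50.5% of stranded counts, so the unstranded column was used. Of 54838 identifiers 54809 matched GENCODE M21.

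Counts were tested with edgeR 4.0.16 (R 4.3.3, quasi-likelihood, TMM, filterByExpr with a minimum count of 10, line as the only term) and Benjamini-Hochberg adjustment over 15191 genes at 0.05. The procedure was tested on simulated data. DESeq2 1.42.0, limma-voom (limma 3.58.1), a spline on G+C content with 5 degrees of freedom, blocks and left-out libraries were alternatives. CPM are TMM-scaled, and RPKM use merged exon length. Shared words were sought in all GENCODE transcripts on either strand, since a genome sequence, as first planned, was not used here. Promoters are from RefSeq (GRCm38.p6, 6 of 8 members matched); the reference is C57BL/6J and the cells are 129/Ola.

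The members and lists were chosen with earlier results of these data known. Named were all members, Ep300, any neighbour or list gene past the threshold or else the nearest on each side and the 4 most abundant neighbours and the 2 most abundant of each list, and the 5 genes nearest in pattern to Rhox5 and to Rhox13.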

Additional observations from a re-analysis of the deposited data

How the results depend on the processing

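Rhox5 was called lower in all 13 settings (-2.16 to -1.83) and Rhox13 in 12 of 13 (-2.27 to -1.80). All settings refit the same libraries, whose contrast was known when the members were chosen, so these calls are a description. The number of all genes called in each setting is given below. Rhox13 lay near the threshold, with an edgeR adjusted p of 0.0498, and lost its call with limma-voom (-2.01, adjusted p = 0.0822). Rhox6, Rhox10 and Rhox1 stayed negative without a call, and Rhox9 ran from -0.50 to 0.21 over the left-out libraries. Summing the strand columns gave 2.43 RPKM for Rhox1 and 0.277 RPKM for Rhox9 in wild-type cells, and 100-base words raised the share found in a single gene to 93.2% for Rhox6 and 97.6% for Rhox9.

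Over all genes 10 passed, against 13 with DESeq2 size factors, 354 without the low-count filter, 197 with the replicate block, 123 with DESeq2, 4 with limma-voom, 180 with the G+C correction, 403 with that and the replicate block, and 16 to 5015 without 1 library (leaving out wild-type 1 gave 5015, wild-type 2 gave 711, knock-in 1 gave 17 and knock-in 2 gave 16). With 1 library left in a group, it is assumed to vary like the other group. Same-numbered libraries share only a number (correlation of their deviations -0.116), and a crossed replicate block, chosen after seeing the data, gave 509. Neighbours passing were 1 without the filter, 1 with the crossed block and 0 to 12 without 1 library. List genes passing were 3 without the filter, 2 with the replicate block, 1 with DESeq2, 1 with the G+C correction, 2 with that and the block, 3 with the crossed block and 0 to 16 without 1 library. The cause of these shifts was not tested.

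Signs turned for genes whose differences were near 0. With the G+C correction, alone and with the replicate block, Ep300 stood at 0.0074 and 0.0045, H1f0 at 0.064 and 0.084, Hormad1 at -0.35 and -0.35, and Trim28 at 0.23 and 0.23. Uhrf1 stood at -0.013 without the filter. Without 1 library, H1f0 ran from -0.30 to 0.19, Hormad1 from -0.37 to 0.63, Rnf113a1 from -0.51 to 0.030, Trim28 from -0.24 to 0.19 and Uhrf1 from -0.15 to 0.18. Counts under about 40 reads limit Rhox6, Rhox9 and Rhox10. Rhox1 was also below that number in both knock-in libraries (31 and 29 reads), and Rhox13 in knock-in 2 (33 reads).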
